A study of Mus musculus with 2 samples.

Results

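Antisense RNA genes lie on the DNA strand opposite another gene, so that their transcripts run against it and can carry its complement. Many stay in the nucleus, where some are known to act on the locus that makes them: Airn and Kcnq1ot1, for example, silence neighbouring imprinted genes in cis. Others are known as hosts of small RNAs or as by-products of divergent promoters, and for most no function is known. In macrophages, RNAs of this class sit beside lineage factors and innate immune genes.

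The genes described here were chosen by annotation and level. A gene was taken when it had a transcript typed antisense and no lincRNA transcript (a long intergenic RNA), a mean TPM of both libraries of 1 or more and a mean expected count of 50 or more. TPM is a transcript share corrected for length and scaled to a fixed sum, and an expected count is an estimated number of reads on a gene. Ptgs2os, Ptgs2os2, Tsix and symbols starting with Mir or Snhg were left out. This gave 240 genes of the 55536 in the tables. Of 3091 genes with an antisense transcript, 21 had a lincRNA transcript and 7 others were left out by name, 1 of which, Snhg14, was past both thresholds. Of the 3063 genes that remained, 1565 had 0 counts in both libraries, 173 passed on TPM alone and 34 passed on count alone. Because level chose the genes, their levels are given as a description.

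RNA came from the nuclear fraction, named nucleus in one label and nucleoplasmic in another, of bone-marrow-derived macrophages of C57BL/6J mice. All cells received 100 ng/ml Lipid A, the TLR4-binding part of bacterial lipopolysaccharide, for 12 h, then 12 h without it, then 100 ng/ml again for 120 min. This single group had 2 biological replicates that share a donor label, and the difference between them may be partly technical. There was no untreated group, and nothing below is an effect of Lipid A. The RNA was depleted of ribosomal RNA. Replicate 1 started from 1 µg of RNA and replicate 2 from 500 ng, so input amount and replicate cannot be told apart.

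The libraries held 28450309 and 16940220 expected counts on genes. All 8 macrophage markers, among them Adgre1, Csf1r and Lyz2, had mean TPM between 40.7 and 1265, and the 10 markers of other blood, endothelial and connective tissue cells had 0.16 or less. Short structural and mitochondrial RNAs took 76.0% of the TPM in replicate 1 and 67.8% in replicate 2, which lowers every other TPM. The strand setting of the sequencing and counting was not given in the sources used here. Where it was unstranded, reads of an antisense gene and of the gene opposite it cannot be told apart over shared bases, and this holds for every level below.

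Some of the RNAs carry the complement of coding sequence, and the sequences below show how much. Each is 1 exon on mm10, 5′ to 3′, from the GENCODE M21 transcripts, with capitals for bases opposite coding bases of the gene on the other strand. The exon of AC119228.1 lies at chr19:29373417-29373672 on the minus strand, opposite Cd274, which encodes the checkpoint ligand PD-L1, and 115 of its 256 bases face coding bases. Its transcript carried 8.16 ± 1.16% (SD, n = 2) of the gene's TPM. The first exon of Gm28913, chr1:131263330-131263394 on the plus strand, has 20 of its 65 bases opposite coding bases of Ikbke, the kinase IKK-epsilon of antiviral and NF-kappaB signalling. All 162 bases of the exon of Gm26642, chr1:135254942-135255103 on the plus strand, face coding bases of Elf3, an ETS factor of epithelial cells.
AC119228.1: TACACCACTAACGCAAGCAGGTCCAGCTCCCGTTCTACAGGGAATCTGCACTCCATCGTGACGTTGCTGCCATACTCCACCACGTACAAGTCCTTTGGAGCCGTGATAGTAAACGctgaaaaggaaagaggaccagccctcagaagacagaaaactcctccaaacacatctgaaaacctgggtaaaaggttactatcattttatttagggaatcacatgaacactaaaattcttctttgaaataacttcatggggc
Gm28913: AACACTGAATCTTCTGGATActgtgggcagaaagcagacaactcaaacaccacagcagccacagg
Gm26642: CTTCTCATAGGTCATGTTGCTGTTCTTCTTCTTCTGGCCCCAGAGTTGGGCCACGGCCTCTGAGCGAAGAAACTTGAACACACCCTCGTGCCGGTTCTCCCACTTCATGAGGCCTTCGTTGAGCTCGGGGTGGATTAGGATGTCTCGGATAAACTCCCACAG
In all, 101 of the 240 genes were found to have an exon with 15 or more bases opposite coding bases of their sense gene. This search left out 1 chromosome, so the true number may be higher.

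F630028O10Rik, chosen here after its values were seen, is the annotated host of Mir223, the microRNA gene of myeloid cells, whose 110-base hairpin lies within its exons. The mature miRNAs from RefSeq (GRCm38.p6) are given with the seed, bases 2 to 8, in capitals. The arms lie at chrX:96242884-96242905 (3p) and chrX:96242842-96242864 (5p) on the plus strand.
mmu-miR-223-3p: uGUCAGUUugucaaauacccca
mmu-miR-223-5p: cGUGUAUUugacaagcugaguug
F630028O10Rik, at 11.4 and 15.5 TPM, is 1 of 7 of the 240 genes with no protein-coding gene opposite it or starting within 1000 bases. These libraries, of fragments from 250 to 400 nt by the labels, do not measure the mature miRNAs. The mature miRNAs of Mir7649 lie in the same way within exons of Gm15987. Mir760 lies within a transcript of Gm17494 typed retained intron, which had 0.02 TPM in each library, and outside its other transcript. In all, 13 of the 240 genes shared exon bases with another gene on their own strand. In Zfas1 these were Snord12 and other small RNA genes, and in 1810032O08Rik they were Snord1a, Snord1b and Snord1c. How reads were shared out between such genes is uncertain.

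Promoters were read for the 55 genes with a RefSeq start within 50 bases of the GENCODE start, of 95 whose symbol was in the RefSeq table. Each window runs from 250 bases before the start to 50 after it. The promoters of 9330159M07Rik (chr9:88858821-88859120, minus strand) and F630028O10Rik (chrX:96239676-96239975, plus strand), on GRCm38.p6, stand for the CG-rich and the CG-poor kind, with 30 and 2 CG dinucleotides. Capitals mark matches to the motifs searched. Counted from the start, the TATAAA of 9330159M07Rik lies at 36 to 41, after the start. The match in F630028O10Rik lies at -73 to -65, before it.
9330159M07Rik: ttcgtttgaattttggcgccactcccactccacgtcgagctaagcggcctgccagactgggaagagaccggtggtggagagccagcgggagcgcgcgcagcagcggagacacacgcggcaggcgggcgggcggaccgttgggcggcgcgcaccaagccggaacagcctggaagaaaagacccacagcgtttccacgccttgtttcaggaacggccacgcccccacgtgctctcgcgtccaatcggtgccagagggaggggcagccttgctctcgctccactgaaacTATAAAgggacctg
F630028O10Rik: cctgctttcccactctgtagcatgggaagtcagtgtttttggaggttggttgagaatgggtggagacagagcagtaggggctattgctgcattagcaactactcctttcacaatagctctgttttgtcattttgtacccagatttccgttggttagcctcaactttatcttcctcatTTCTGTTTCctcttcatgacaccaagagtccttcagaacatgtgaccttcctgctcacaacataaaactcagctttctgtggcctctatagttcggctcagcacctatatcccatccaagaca
Over the 55 promoters the median was 9 CG dinucleotides, with a range of 0 to 51, against 7 over all 32851 RefSeq promoters. Of those 55, 13 (23.6%) had 20 or more, against 26.5% of all promoters. The 12 promoters of genes head to head with their sense gene had a median of 11, and the 22 of genes lying inside the sense gene had a median of 4. Of the 13 with 20 or more, 4 were head to head and 1 lay inside the sense gene, and the rest were tail to tail. Zfas1, head to head with Znfx1, had 47. Tail to tail promoters ranged from 2 in Gm10248 to 51, the most of all, in E530011L22Rik.

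Motifs were searched on both strands, and an overlap between motifs was allowed. TATAAA was found in 4 of 55 windows (7.27%), against 13.6% of all promoters. The AP-1 motif TGANTCA was found in 4 (7.27%), against 7.81%, and the ISRE core GAAANNGAA in 4 (7.27%), against 8.56%. The PU.1 motif GAGGAAGT was in 1 window (1.82%, against 3.20%) and the kappaB motif in 6 (10.9%, against 5.80%). With 55 windows each of these counts rests on few genes, and a match is a description only.

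The 240 genes took a small part of the nuclear RNA. Their expected counts summed to 93244 in replicate 1, 0.328% of all counts on genes, and to 82231 in replicate 2, 0.485%. The median gene stood at 2.35 TPM in replicate 1 and 4.25 in replicate 2. Levels were uneven: 1 gene had a mean TPM of 100 or more, 6 had 50 or more, 38 had 10 or more and 65 had less than 2. The 12 highest genes held 40.5% of the TPM of all 240 in replicate 1 and 38.0% in replicate 2. Of the 240, 198 had a TPM of 1 or more in both libraries.

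Gm26716 was the highest, at 113 TPM in replicate 1 and 157 in replicate 2. All of its exonic bases lie on exons of Sdc3, a cell-surface heparan sulfate proteoglycan, which had 162 and 122 TPM. The authors' second quantification of the libraries (the second tool) gave Gm26716 only 0.67 and 45.3 TPM, the widest ratio between libraries among the 12 highest genes by that tool. Gm15655 lies in the same way on exons of Maf, a transcription factor of macrophages, and had 22.3 and 77.8 TPM beside 50.05 and 82.6 for Maf. Gm37401 has 93.4% of its bases on exons of the GTPase gene Rhoa and had 20.98 and 58.6 TPM beside 46.2 and 66.3. All 3 lay below the overlapping gene in replicate 1, and in replicate 2 Gm26716 alone lay above it, over bases that the genes share.

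Other high genes share fewer bases with the gene opposite. AC119228.1 had 58.1 and 102 TPM and lies inside Cd274, at 235 and 318 TPM, with 10.8% of its bases on Cd274 exons. BE692007 runs tail to tail with Ms4a6c, a membrane protein gene of the MS4A family, and had 45.5 and 101 TPM beside 155 and 172. Gm28913 had 46.1 and 95.9 TPM, and Gm28914, which also lies inside Ikbke, had 11.9 and 20.2, while Ikbke stood at 274 and 326. Gm16094 shares no exonic base with Sp110, a gene of a nuclear body protein whose start lies 469 bases away on the other strand. It had 49.6 and 81.2 TPM beside 68.4 and 74.9. The level of Gm16094 was thus near that of Sp110 in these tables, with no shared exonic base. The second tool gave higher levels, of 93.3 and 189.96 TPM for Gm16094 and 137 and 301 for Gm28913.

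The rest of the 12 include known loci. Start distances below are to the nearest annotated start of any transcript of the gene opposite. Zfas1, a host of small nucleolar RNAs, starts 81 bases from Znfx1, an antiviral RNA helicase gene, and had 52.1 and 43.9 TPM beside 132 and 101. It was the only one of the 12 highest genes with a lower TPM in replicate 2, and by the second tool it was not, at 23.7 and 27.01. Tug1, a conserved nuclear long non-coding RNA, starts 86 bases from Morc2a, a gene of chromatin silencing, and had 32.3 and 42.7 TPM beside 6.11 and 11.3. Zeb2os lies inside Zeb2, the gene of a transcription factor of macrophage identity, and starts 26 bases from an internal transcript start of Zeb2. Zeb2os had 22.3 and 44.7 TPM beside 262 and 530. The second tool gave Zeb2os 130 and 162 TPM, of which 103 and 111 fell on a 61-base transcript (Zeb2os-203) that had 0 in the first tables. 4933423P22Rik lies inside the receptor phosphatase gene Ptprj and starts 66 bases from an internal transcript start of that gene. It had 22.7 and 56.7 TPM beside 105 and 131. Gm37787, with 72.3% of its bases on exons of the receptor gene Slamf7, had 28.9 and 48.5 beside 344 and 353.

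**Figure D1:**
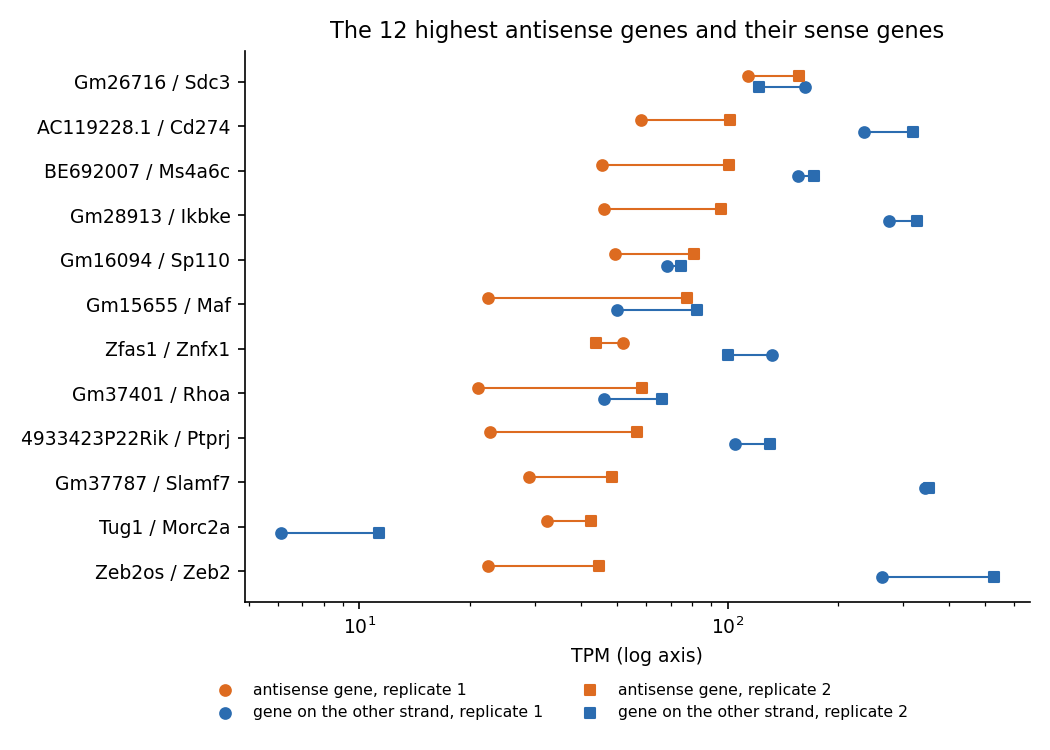
TPM (log axis) of the 12 highest antisense genes and of the gene on the other strand, with circles for replicate 1, squares for replicate 2 and a line joining the 2 libraries. Of the 12, Tug1 alone lies above its sense gene in both libraries. Zfas1 alone is lower in replicate 2 on the TPM shown, and not on the TPM of the second tool.

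Of the imprinted RNAs, Airn had 3.08 and 7.81 TPM, and Igf2r, the gene it runs against and is known to silence, had 17.96 and 19.8. Kcnq1ot1, a single exon of 93092 bases, had 0.69 and 3.06 TPM from 3156 and 5957 counts. The potassium channel gene Kcnq1 that surrounds it had 0.01 and 0.00. Gt(ROSA)26Sor, the Rosa26 locus used for transgenes, had 11.9 and 17.4 TPM. These 3 genes were chosen here as widely known, and Kcnq1ot1 in replicate 1 was their single value under 1 TPM.

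The 240 RNAs were short and little spliced beside protein-coding genes. The median member had 2410 exonic bases in the union of its transcripts, 2 exons at most and 46.8% GC. Protein-coding genes past the same thresholds, 8975 of them, had medians of 4711 bases, 10 exons and 49.0% GC. The 166 lincRNA genes past them were like the antisense genes, with medians of 2652 bases, 2 exons and 45.6% GC. In 33 of the 240, every transcript had a single exon, and 136 had 1 annotated transcript. Transcripts typed antisense held 94.6% of the TPM of the 240 genes in replicate 1 and 94.8% in replicate 2, and transcripts typed retained intron held 5.22% and 4.89%. Of the 104 genes with more than 1 transcript, 89 had the same leading transcript in both libraries.

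A sense gene, the protein-coding gene opposite with the most overlap or otherwise a divergent start within 1000 bases, was found for 233 of the 240. By position, 125 lie inside the sense gene, 55 overlap it tail to tail, 44 overlap it head to head, 8 enclose it, and 1, Gm16094, starts divergently without overlap. In 9 genes 90% or more of the exonic bases lie on exons of the sense gene, in 148 a part does, and in 76 none does. An annotated transcript of the sense gene starts within 1000 bases in 61 and within 100 bases in 17. Of the 61, 23 lie inside the sense gene, where this start can be an internal one. Since 19 of the 240 share 8 sense genes, they are not all independent loci: 4 lie opposite Arhgap10, 3 opposite Lrmda and 2 each opposite Arhgap22, Atxn7l1, Cdk6, Ikbke, Sp140 and Zbtb20.

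Most of the RNAs were lower than their sense gene. The median log2 ratio of mean TPM, antisense over sense with 0.1 added, was -2.11 over the 233 pairs. The sense gene had a mean TPM of 10 or more in 158 pairs and less than 1 in 18. In 36 pairs the antisense gene was at or above the sense gene on mean TPM, 31 of them in both libraries, and in 21 by 4 times or more. Of the 9 genes that lie almost wholly on exons of the sense gene, 0 were at or above it.

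**Figure D2:**
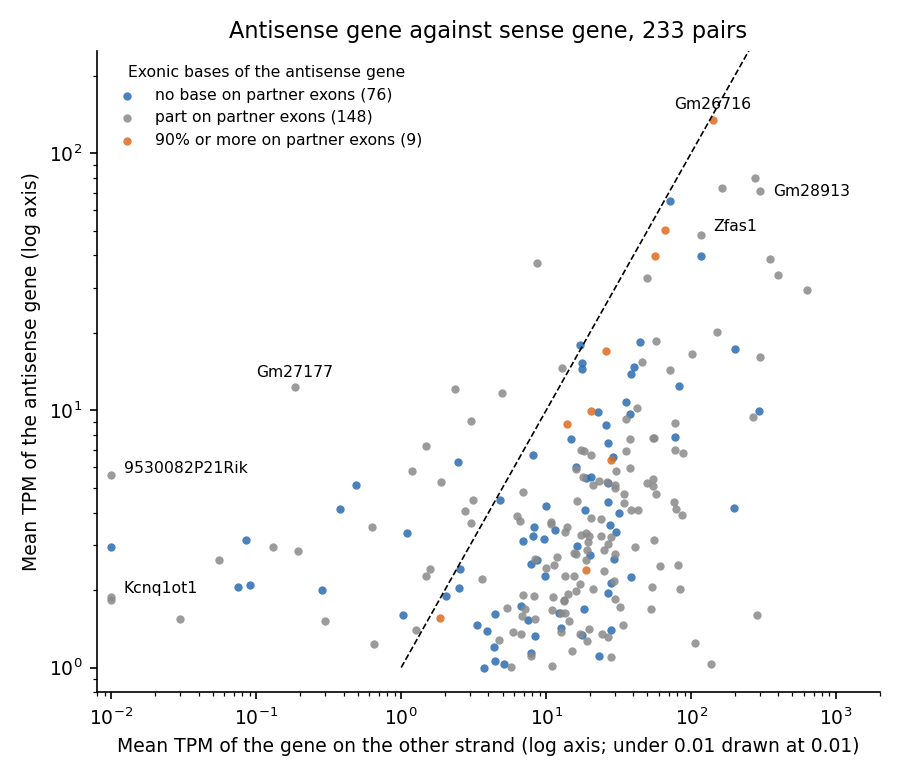
Mean TPM of 2 libraries for each antisense gene (vertical, log axis) and its sense gene (horizontal, log axis), coloured by how much of the antisense gene's exons lie on exons of the sense gene. The dashed line marks equal levels; 36 of the 233 pairs lie on or above it.

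Several antisense genes stood opposite a gene with almost no reads. Gm27177 had 6.48 and 18.2 TPM against 0.18 and 0.19 for Loxl2, a lysyl oxidase gene. Etohd2 had 2.06 and 3.81 TPM inside Gm49354, listed at 0 in both. Gm26642, whose exon is printed above, had 0.78 and 2.89 TPM while Elf3 was listed at 0 in both. The genes opposite these 3 thus had few reads or none. 9530082P21Rik, annotated head to head with the Wnt pathway receptor gene Kremen2 (listed at 0), had 5.11 and 6.11 TPM, but 0 TPM on its transcript that reaches Kremen2. An annotated overlap is thus not always one of the expressed RNA. Of 232 pairs with overlapping spans, 199 had all of the antisense TPM on transcripts that overlap the sense gene, and 16 had less than 50% there. Among those 16 were Tug1, with 32.1% and 15.4%, and 8 of the 36 at or above their sense gene.

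Annotated antisense genes were more often past the thresholds where the sense gene was higher. Of 1170 antisense genes opposite a gene under 0.1 TPM, 9 were past both thresholds (0.769%). The share was 2.12% (9 of 424) for sense genes from 0.1 to 1 TPM, 6.11% (28 of 458) from 1 to 5, 10.2% (29 of 283) from 5 to 10, 24.5% (115 of 470) from 10 to 50 and 38.7% (43 of 111) at 50 or more. Among antisense genes with no base on exons of the sense gene the shares were 0.718%, 1.5%, 8.28%, 12.3%, 22.2% and 20.0% in the same order. The order held up to 50 TPM in both sets, and above 50 TPM the share without shared exonic bases rested on 7 of 35 genes. Reads from introns of the sense gene could count here if strand was not kept, and their part was not tested. Of 147 antisense genes without a sense gene, 7 were past both thresholds (4.76%).

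**Figure D3:**
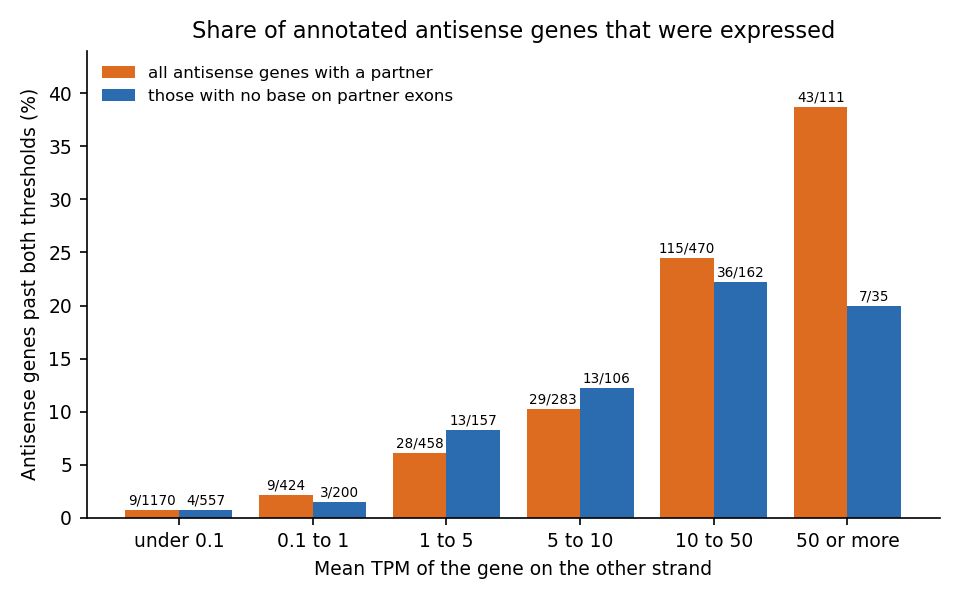
Percent of annotated antisense genes past both thresholds, by the mean TPM of the gene on the other strand, for all those with a sense gene (orange) and for those with no exonic base shared with it (blue), with numbers above the bars. Both sets rise from under 1% to above 20% at 10 to 50 TPM.

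Lists of genes for macrophage activation and nuclear functions were searched for expressed antisense genes, and 10 of the 240 lie opposite a listed gene. The counts below cover the listed genes only. Over all annotated antisense genes considered, 240 of 3063 were past both thresholds. Opposite genes at 10 to 50 TPM the share was 24.5%, and at 50 or more it was 38.7%. With so few antisense genes in each list, no difference from these shares is read from the counts. In the list of TLR4 and NF-kappaB pathway genes, 8 of 58 have an annotated antisense gene, and 3 of these 10 antisense genes were expressed: Gm28913 and Gm28914 (Ikbke) and Gm40578 (Tnfaip2). Gm40578 had 22.6 and 36.2 TPM beside 440 and 822 for Tnfaip2, a TNF-induced gene. Among interferon-stimulated genes 1 of 6 antisense genes was expressed, Gm20234, at 8.31 and 11.5 TPM beside 275 and 313 for Slfn2, a schlafen gene. Among the listed genes of macrophage identity it was 1 of 6, Gm15655 opposite Maf. Zeb2, which lies opposite Zeb2os, was not on that list. For the listed cytokines and chemokines 2 antisense genes are annotated, and 0 were expressed. Il1bos had 0.34 and 0.93 TPM beside 68.0 and 96.7 for Il1b, and Gm12223 opposite Csf2 was listed at 0. The cytokine genes Ebi3 and Il7 were not on the list. Opposite them, Gm16712 had 22.7 and 42.7 TPM and Gm16685 had 1.17 and 1.53. For the listed immediate-early factors 0 of 3 antisense genes were expressed, with Junos at 0.79 and 1.62 TPM but only 14.1 and 14 counts.

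Antisense genes of the listed RNA processing and chromatin genes were expressed in 2 of 6 and 3 of 11 cases. Gm29361 lies inside Rbm25, a splicing factor gene, and had 11.0 and 22.1 TPM beside 61.9 and 141. E530011L22Rik, tail to tail with the cyclophilin gene Nktr, had 0.79 and 1.71 TPM beside 78.3 and 134. B230319C09Rik lies inside Tet3, the gene of an enzyme that oxidises methylated cytosine, and starts 77 bases from an internal transcript start of Tet3. It had 4.15 and 15.6 TPM beside 15.4 and 30.2. AC061963.1, opposite the histone methyltransferase gene Kmt2a, had 3.82 and 6.4 TPM beside 18.2 and 41.6. Dnmt3aos, inside the DNA methyltransferase gene Dnmt3a, had 1.45 and 2.24 TPM beside 29.5 and 30.4. In each of these 5 pairs the sense gene was the higher in both libraries.

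The 2 libraries were compared gene by gene on rounded counts with a two-sided exact binomial test given TMM-scaled library sizes, adjusted by Benjamini-Hochberg over 14698 genes, at a threshold of 0.05. The test takes in counting error alone, uses no spread between samples and says nothing of conditions. Of the 240 genes, 121 (50.4%) were called higher in replicate 2, where 29.3% of all tested genes were, and 37 (15.4%) were called higher in replicate 1, against 30.0%. The median log2 ratio, replicate 2 over 1, was 0.36 against 0.01 over all tested genes. With library size alone as the scaling, 146 were higher in replicate 2 and 27 in replicate 1, against 38.6% and 21.9% of all genes. A gene that is high in 1 library can pass the mean thresholds through that library alone. Among the 198 genes that reached 1 TPM in each library, 84 were higher in replicate 2 and 34 in replicate 1. Their median was smaller, at 0.25. The lincRNA genes past the same thresholds, 166 in number, had a median of 0.28, with 86 higher in replicate 2 and 38 in replicate 1, and protein-coding genes had a median of -0.09. The shift towards replicate 2 was thus shared with lincRNA genes. Some other measures differed between the libraries in the same sense. Mitochondrial genes held 4.15% of counts in replicate 1 and 10.3% in replicate 2. The nuclear RNAs Malat1 and Xist had 10410 and 24100 TPM and 50.06 and 178 TPM. The nuclear RNAs Neat1 and Rn7sk were not higher in replicate 2, at 499 and 489 TPM and 345568 and 254544 TPM. The part of these measures in the shift was not tested. The common biological coefficient of variation between the libraries was 0.335.

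**Figure D4:**
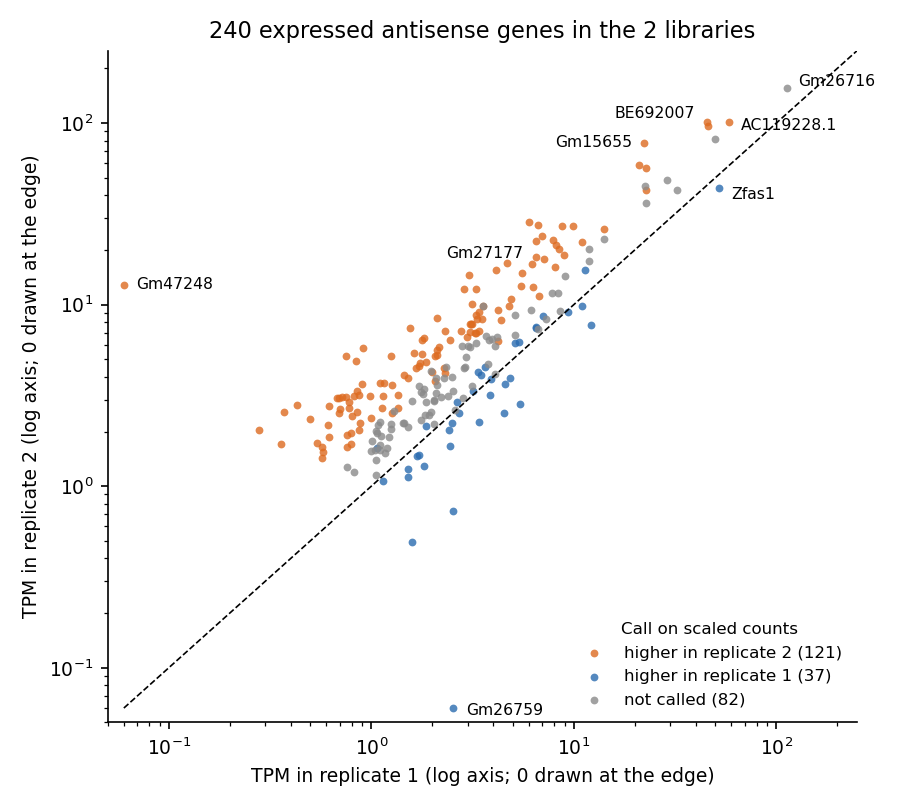
TPM of each of the 240 genes in replicate 1 (horizontal) and replicate 2 (vertical), log axes, coloured by the call on TMM-scaled counts; the dashed line marks equal TPM. On the TPM scale 217 of the 240 lie above the line, beside a median over all tested genes of 0.43 (log2), and the calls use scaled counts.

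The 10 genes called furthest apart between the libraries had from 0 to 72.8 counts in the lower library. Gm47248, which lies wholly on exons of Trim34a, a TRIM family gene, had 0 counts in replicate 1 and 105 in replicate 2. Set against 3 counts in replicate 1, which a count of 0 allows, it was at least 52.7-fold higher in replicate 2. It passed the mean thresholds through replicate 2 alone, so that its call, counted among the 121, is not read as support for this difference. The second tool gave it 0 and 2.4 TPM. Gm26759, opposite Irf2bp2, a transcriptional corepressor gene, had 127 counts in replicate 1 and 0.09 in replicate 2, at least 28.3-fold lower by the same floor. It passed through replicate 1 alone. The second tool gave Gm26759 1.97 and 1.86 TPM, so that difference was found by 1 tool only. Dhrs13os, Gm38134, Gm28988 and Gm14540 followed Gm47248, with log2 ratios from 2.06 to 2.23, and were all under 1 TPM in replicate 1, which the choice of genes by their mean favours. C130040N14Rik, Gm26885, Gm26674 and 1700034P13Rik followed Gm26759, with log2 ratios from -2.33 to -1.49. These last 4 all lie head to head with their sense gene. The direction for 1700034P13Rik rests on counts, of 90.03 and 21.02, while its TPM was 1.07 and 1.63. On the TPM of the second tool 3 of the 4 were not lower in replicate 2. Gm26885 had 4.37 and 7.33 TPM, Gm26674 4.23 and 4.47 and 1700034P13Rik 2.49 and 6.05. On that scale 233 of the 240 genes were higher in replicate 2, so it is not a like measure to the scaled counts.

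The library difference went with position and with base composition. Genes inside the sense gene had a median log2 ratio of 0.65, with 79 of 125 (63.2%) higher in replicate 2 and 6 (4.8%) in replicate 1, beside 29.3% and 30.0% of all tested genes. Tail to tail genes had a median of 0.28, with 27 of 55 (49.1%) and 8 (14.5%). Head to head genes had a median of -0.19, with 10 of 44 (22.7%) and 17 (38.6%), which is near the shares over all genes. No test between the positions was made. By GC content, the 80 genes with the least GC had a median of 0.78, the middle 80 of 0.26 and the 80 with the most of 0.09. Within the 80 GC-richest genes the median was 0.39 for the 34 inside the sense gene and -0.51 for the 23 head to head. Within the 80 GC-poorest it was 0.88 for 47 and 0.57 for 9. Genes inside the sense gene were thus the higher in each GC class, and GC-poor genes the higher in each position. Whether base composition, input amount or intronic reads set these medians was not tested.

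**Figure D5:**
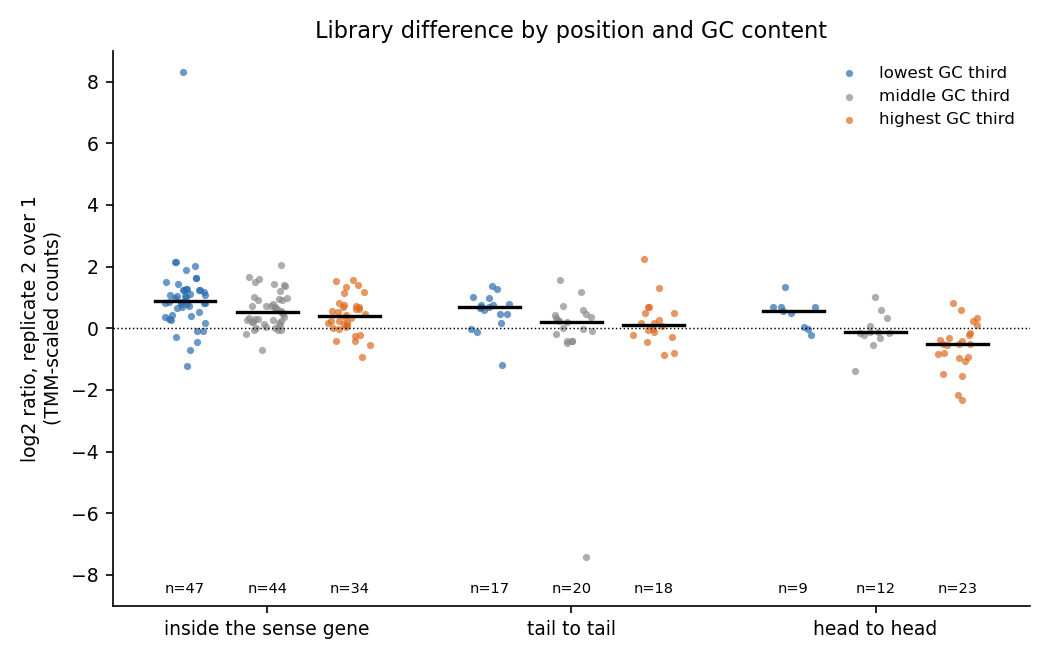
Log2 ratio of TMM-scaled counts, replicate 2 over 1, for the genes inside, tail to tail or head to head with the sense gene, each split into lowest, middle and highest GC content. Points are genes and bars are medians; in each position the median falls from low to high GC.

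Sense and antisense genes were both tested in 224 pairs. The antisense gene had the higher log2 ratio in 172 of them, with a median of 0.36 against -0.21 for the sense genes. Of these sense genes 21.4% were called higher in replicate 2 and 54.5% in replicate 1, and of all protein-coding genes past the thresholds 26.4% and 40.8%. Both were called higher in replicate 2 in 30 pairs and both higher in replicate 1 in 30. In 48 pairs the antisense gene was higher in replicate 2 and the sense gene higher in replicate 1, as for BE692007 at 0.58 and Ms4a6c at -0.54, and in 0 pairs the reverse was seen. These pair counts go the way of the 2 classes' own shares, and nothing more is read from them. Gm15655 was higher by 1.28 on the log2 scale in replicate 2, beside 0.08 for Maf. All bases of Gm15655 lie on exons of Maf, so how reads were shared out between these genes is uncertain. Zfas1 at -0.33 and Znfx1 at -1.06 were both higher in replicate 1.

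The first and the second quantification gave similar levels for most of the genes. Of the 240, 211 were within 2 times of each other on mean TPM, 7 were 4 times or more higher by the second tool and 4 were 4 times or more lower. By the second tool 220 had a mean TPM of 1 or more. Gm17139 and Gm44709, which lie on exons of Arel1 and Supt5, were among the 4. Gm17139 had 12.2 and 7.71 TPM in the first tables and 1.3 and 0.00 by the second tool, and Gm44709 had 8.57 and 9.2, then 1.14 and 0.72. Gm20234, Gm48754 and Gm16754 were the highest against the first tables, with means of 75.9, 16.4 and 11.6 TPM by the second tool and 9.93, 2.53 and 1.81 by the first. Of the 9 genes almost wholly on exons of the sense gene, 4 differed by 4 times or more between the tools, against 2 of the 76 with no base there.

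Near the thresholds, A930006L05Rik, Gm17494, Gm17638 and Gm16316 were just inside on mean TPM, from 1.00 to 1.03, and Gm17029, Gm15518, Gm10602 and Gm10603 just outside, from 0.945 to 0.995. On mean count, Gm44672, AC129188.1, Gm49030 and 6030442K20Rik were just inside, from 50.4 to 51.1, and 0610040B10Rik, Gm19412, 4931406G06Rik and Gm47806 just outside, from 49.0 to 49.5. Gm19412, just outside, lies inside Tapbp, a gene of antigen presentation, at 3.62 and 2.39 TPM.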

How the data were processed

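Nuclear RNA was measured in 2 libraries of 1 group. Per the file headers, tables of genes and of transcripts deposited by the authors give expected counts, TPM, posterior mean TPM, interval bounds on TPM (treated as a score) and each transcript's percent of its gene's TPM. A further transcript table deposited by the authors, called the second tool, gives estimated counts and TPM. Neither tools, aligner nor strand setting were given in the sources used here. The reference was mm10 with GENCODE M21, per notes deposited with the files, and the annotation used here is that release. Rows that name no mouse gene held 1.79% of counts in replicate 1 and 0.318% in replicate 2 and stayed out of library sizes and tests.

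The genes and lists were chosen with earlier results of these data known. Levels are deposited TPM. Named genes are the 12 highest, the 5 furthest apart each way between libraries, the 5 highest over their sense gene, the 5 furthest apart by tool, those opposite a listed gene, 4 each side of each threshold, and others said to be chosen later. Expected counts were rounded, scaled by TMM (edgeR 4.0.16, R 4.3.3) and compared (where the mean count reached 10) by an exact binomial test that was tested on simulated data. Log2 ratios of counts add 0.5, and ratios of antisense over sense TPM add 0.1. A count of 0 allows up to 3 counts, or 0.105 and 0.177 CPM in the respective libraries, counting error only. Other thresholds, scalings (DESeq2 1.42.0), filters, estimates and single libraries were tried. Python 3.11.15, pandas 2.3.3 and scipy 1.17.1 were used.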

Additional observations from a re-analysis of the deposited data

How the results depend on the processing

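The number of expressed antisense genes was 240. It came to 389 when the mean count had to reach only 10, and to between 167 and 269 under the other thresholds and estimates tried. It was 219 to 245 from 1 library alone. Their median TPM was 3.35. It was 2.35 to 4.25 from 1 library alone, and 11.7 after rescaling without short structural and mitochondrial RNAs. The 36 of 233 genes at or above their sense gene (15.5%) came to 11 of 76 (14.5%) when only genes with no base on its exons were counted, a like share of fewer genes, and to 33 to 41 from 1 library alone. The median log2 ratio of antisense over sense TPM was -2.49 to -1.92 from 1 library alone. The calls between libraries stayed within 1.5 times of 121 and 37 under each scaling, filter and threshold tried. The median shift relative to all tested genes was 0.27 to 0.35 on the log2 scale. It is centred on those genes, so a change of scaling cannot alter it. Not centred, it was 0.36, and 0.52 with library size alone as the scaling. Of 39 named genes, 16 moved by more than the spread between the libraries with the second tool, and 2 with posterior means. No paired analysis was possible because the study has a single group. The strand setting, the shared donor label and the 2 libraries limit every value above.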
